A study of Mus musculus with 2 samples.

Results

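The Kruppel-like factors are zinc finger transcription factors, and 10 of them (Klf2, Klf3, Klf4, Klf5, Klf6, Klf7, Klf9, Klf10, Klf13 and Klf15) were followed here among the 19505 genes named on the array. They were taken by gene symbol, and each was measured by 1 probe, the term used here for 1 identifier of the array. The cells were lung cells positive for EpCAM, an epithelial surface protein, and for a GFP reporter labelled SPC, the usual short name of surfactant protein C of alveolar type 2 cells. One group consisted of control mice kept in air for 3 months and the other of mice exposed to smoke for 3 months, and both groups carried the reporter. Each group was 1 Clariom S Mouse array, so the number of arrays limits the precision, and a difference compares these 2 samples with no replicate check, SD or p-value. The sources used here do not give strain, sex, age, animals per sample, pooling, hour of collection, reporter construct or smoke dose.

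Kruppel-like factors bind GC-rich and CACCC-type DNA elements through zinc fingers at their C-terminal end, and the less conserved N-terminal part recruits coactivators or corepressors. By that part the family falls into branches: Klf2, Klf4, Klf5, Klf6 and Klf7 act largely as activators through acetyltransferases, Klf9, Klf10 and Klf13 bind the Sin3 corepressor, and Klf3 binds the corepressor CtBP. Klf15 stands outside these branches. In lung, Klf5 is known for its part in the maturation of alveolar epithelium, Klf2 and Klf4 for quiescence of blood vessel endothelium, and Klf9 and Klf15 as genes induced by glucocorticoids. Several members (Klf2, Klf4, Klf6 and Klf10) are early response genes, and Klf9, Klf10 and Klf15 cycle with the circadian clock in some tissues.

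No studied member differed 2-fold between the smoke and air arrays. Klf5 and Klf9 stood furthest above their air signals, at 1.58-fold and 1.53-fold, followed by Klf13 at 1.34-fold; Klf4 was furthest below, at 1.39-fold lower. All 10 members were bright enough on both arrays to pass the level filter of 4.57 (log2 signal, the median of all probe values), so none passed through 1 array alone. Of the 10, 5 were higher, 4 were lower and Klf10 was equal, and the median log2 difference, smoke minus air, was 0.125. Over the 10419 genes above the filter the median was 0.06 and 54.3% were higher. Under quantile normalization the medians were 0.0275 for the members and -0.01 for all genes above the filter, and centred by level they were 0.05 and -0.005. Past 2-fold, 0 of 10 members were higher and 0 lower, beside 3.94% and 2.48% of all genes above the filter, 6.41% in either direction. Past 1.5-fold, 2 members (Klf5 and Klf9) were higher and 0 lower, beside 14.5% and 9.19% of genes, 23.7% in either direction, so the member counts were near this background. The 2 members past 1.5-fold dropped to 0 under quantile normalization and when differences were centred by level.

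**Figure D1:**
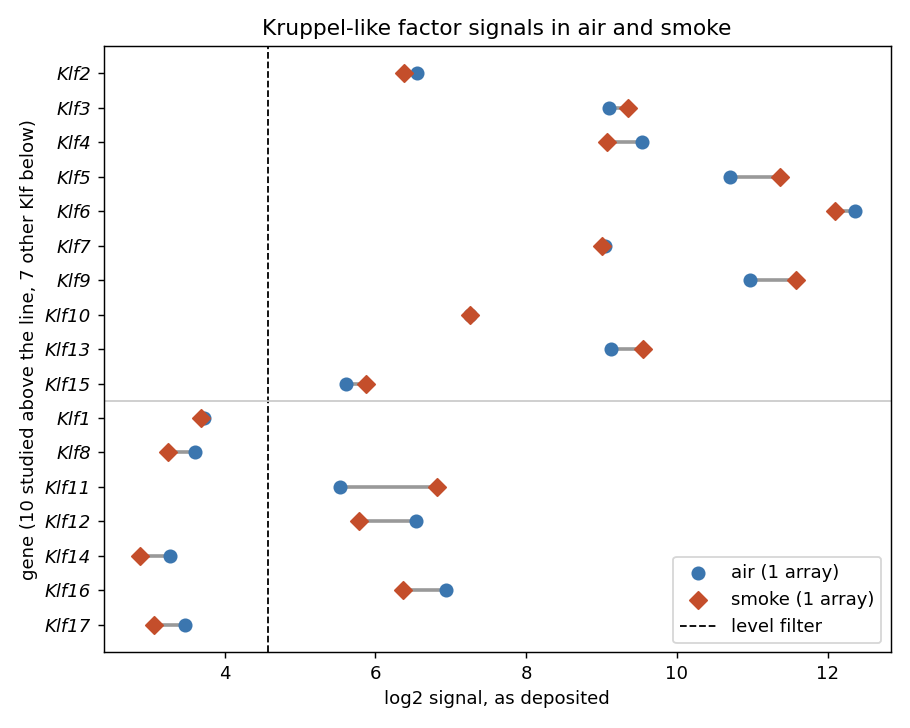
Log2 signal (x axis, as deposited) of the 10 studied Klf genes and the 7 other Klf genes (y axis) in the air array (circles) and the smoke array (diamonds), 1 array each, with grey bars joining the pair and a dashed line at the level filter of 4.57. All studied genes lie above the filter on both arrays and the pairs lie close together; the longest bar is that of Klf11, from 5.53 to 6.82.

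The DNA just upstream of a gene's start is shown for 5 Klf genes. Of these, 4 hold a CACGTG E-box and are all the Klf genes with such a site among the promoters searched. That element is bound by the clock activator BMAL1 (gene Arntl) with NPAS2 (gene Npas2) or CLOCK. Klf9, a clock- and glucocorticoid-linked member, is shown because it holds none. The sequences are from RefSeq (GRCm38.p6), which had a promoter entry for 8 of the 10 members (not Klf5 and Klf10), and they run 5′ to 3′ over the 250 bases before the start. Capitals mark the E-box, and in Klf9 the CACCC box. Klf4 (chr4:55532476-55532725, minus strand), Klf6 (chr13:5861239-5861488, plus), Klf9 (chr19:23140976-23141225, plus), Klf11 (chr12:24651121-24651370, plus) and Klf15 (chr6:90462326-90462575, plus) read as follows, and for Klf15 the start used lies inside the annotated gene rather than at its first base.
Klf4: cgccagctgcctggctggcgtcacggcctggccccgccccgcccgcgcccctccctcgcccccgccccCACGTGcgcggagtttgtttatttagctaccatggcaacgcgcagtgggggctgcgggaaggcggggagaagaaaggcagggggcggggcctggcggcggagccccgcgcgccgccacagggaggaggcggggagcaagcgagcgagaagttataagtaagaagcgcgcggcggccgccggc
Klf6: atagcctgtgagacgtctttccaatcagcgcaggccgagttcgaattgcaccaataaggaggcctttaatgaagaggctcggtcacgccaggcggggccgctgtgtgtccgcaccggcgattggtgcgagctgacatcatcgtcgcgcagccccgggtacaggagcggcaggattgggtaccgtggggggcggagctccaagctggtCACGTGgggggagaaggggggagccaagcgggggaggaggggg
Klf9: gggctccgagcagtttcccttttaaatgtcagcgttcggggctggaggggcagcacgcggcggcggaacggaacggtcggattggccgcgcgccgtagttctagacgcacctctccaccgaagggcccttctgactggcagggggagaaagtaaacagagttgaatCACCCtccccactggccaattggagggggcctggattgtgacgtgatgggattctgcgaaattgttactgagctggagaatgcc
Klf11: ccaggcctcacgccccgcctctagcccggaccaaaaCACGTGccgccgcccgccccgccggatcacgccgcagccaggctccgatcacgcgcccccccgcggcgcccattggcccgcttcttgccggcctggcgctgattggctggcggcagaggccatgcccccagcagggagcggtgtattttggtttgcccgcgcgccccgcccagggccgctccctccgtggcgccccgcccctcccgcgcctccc
Klf15: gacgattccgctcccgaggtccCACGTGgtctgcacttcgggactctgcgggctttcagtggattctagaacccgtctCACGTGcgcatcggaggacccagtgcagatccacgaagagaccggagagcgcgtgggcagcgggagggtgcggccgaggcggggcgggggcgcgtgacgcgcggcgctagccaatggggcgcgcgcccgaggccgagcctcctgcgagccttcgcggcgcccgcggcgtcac
The third E-box of Klf15 spans its start, from -3 to 3, and is shown with its flanks (chr6:90462561-90462590, plus).
Klf15 at the start: cgcccgcggcgtCACGTGagcggccggaga

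The motif search covered 250 bases before to 50 after each start, on both strands, in 32851 promoters of the same length. CACGTG occurred in 7.15% of them and in 3 of the 8 member promoters: Klf15 held 3 (-228, -172 and -3), Klf4 held 1 (-182) and Klf6 held 1 (-43). The GC box GGGCGG, the element that Kruppel-like factors themselves recognise, occurred in 35.7% of all promoters and in 7 of the 8, with Klf9 the exception; Klf3 held 6 copies. CACCC occurred in 57.5% of all promoters and in 6 of the 8, not in Klf4 or Klf6. GC boxes can overlap each other, as the pair of Klf4 starting at -217 and -212 does, and were then counted apart. The D-box TTATGTAA (0.938% of promoters), the nuclear receptor motif AGGTCA (16.3%) and the glucocorticoid receptor motif AGAACA (19.0%) occurred in none of the 8 windows. This says only that these letters are not in these windows. Both receptor motifs are parts of longer elements, and the full elements were not searched for.

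Among the activator branch, Klf5 had the largest difference. On the log2 signal scale Klf5 was at 10.71 in air against 11.37 in smoke, a log2 difference of 0.66. Klf4, a factor of epithelial differentiation and of endothelium, was at 9.54 in air against 9.07 in smoke, a log2 difference of -0.47. The pair lay on opposite sides: Klf5 was higher and Klf4 lower in smoke. Klf6, a stress-responsive factor first described as an injury-induced gene, was at 12.36 in air against 12.10 in smoke, a log2 difference of -0.26. Klf2, which promotes endothelial and lymphocyte quiescence, was at 6.55 in air against 6.38 in smoke, a log2 difference of -0.17. Klf7, known for its part in neuron development, was at 9.04 and 9.01, a log2 difference of -0.03. Klf2, Klf6 and Klf7 thus differed by 1.20-fold or less, and under every scaling tried Klf5 was higher and the other 4 genes of this branch were lower.

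The Sin3-binding members were equal or higher in smoke. Klf9 was at 10.97 in air against 11.58 in smoke, a log2 difference of 0.61. Klf13, a factor of lymphocytes and heart development, was at 9.13 in air against 9.55 in smoke, a log2 difference of 0.42. Klf10, an early gene induced by TGF-beta, was at 7.26 on both arrays; its difference was -0.09 under quantile normalization, -0.10 when centred by level and 0.02 when centred on the median of all genes, so it has no direction. Klf3, the CtBP-binding member known from red cell and fat cell development, was at 9.10 in air against 9.35 in smoke, a log2 difference of 0.25. Klf15, a regulator of amino acid and glucose metabolism, was the dimmest member, nearest to the filter, at 5.61 in air and 5.88 in smoke. Its log2 difference of 0.27 was 0.21 when an offset of 16 was added on the linear scale, which damps differences of low signals.

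Each member was then set beside the 200 genes nearest to it in mean level, as a description of these arrays. The robust SD of the differences of those genes, a scaled median absolute deviation that holds both noise and real differences, ran from 0.40 to 0.51 over the members, and their median difference ran from 0.01 to 0.13. Klf5 lay at the 90.0th percentile of its like-level genes and Klf9 at the 88.0th, which is 1.32 and 1.33 robust SDs above the median of those genes. Of the 200 genes beside Klf5, 30 (15%) differed by at least as much in either direction, and beside Klf9 the number was 37 (18.5%). Klf4 was at the 8.75th percentile, 1.20 robust SDs below the median (-1.20), and 59 of its 200 like-level genes (29.5%) were as far from 0. Klf13 lay at the 77.0th, Klf15 at the 69.3rd, Klf3 at the 63.8th, Klf7 at the 40.3rd, Klf10 at the 39.8th, Klf2 at the 34.0th and Klf6 at the 17.3rd percentile. All 10 members were inside the central 95% of their like-level genes, from the 8.75th to the 90.0th percentile. With 100 like-level genes in place of 200, Klf5 was at the 83.0th percentile.

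**Figure D2:**
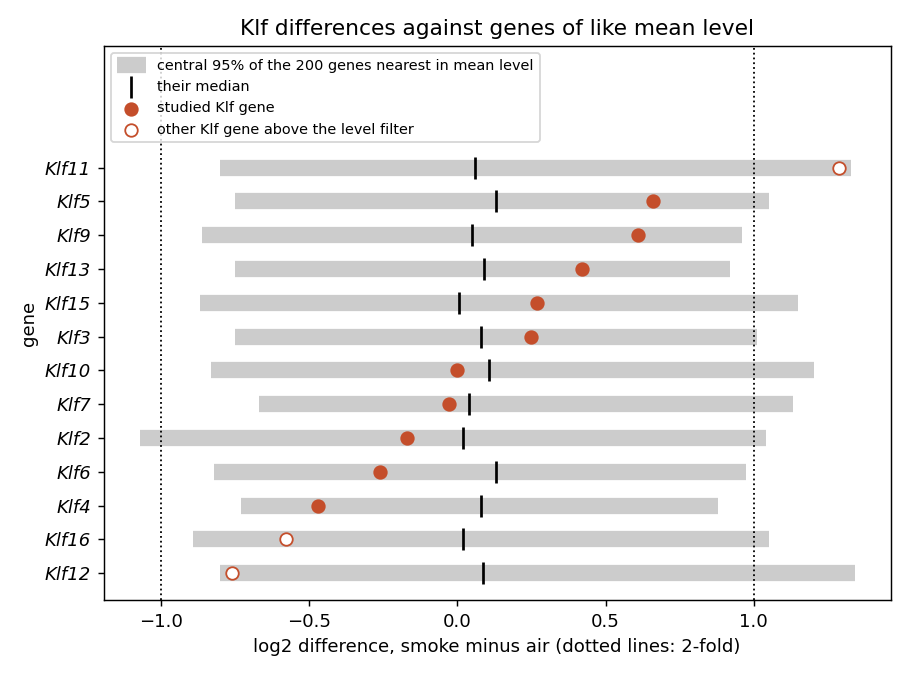
Log2 difference, smoke minus air (x axis), of each Klf gene above the level filter (y axis), filled for the 10 studied genes and open for Klf11, Klf12 and Klf16, over grey bars that span the central 95% of the 200 genes nearest in mean level, with a black tick at their median. Every studied gene lies inside its grey bar and inside the dotted 2-fold lines; Klf11 lies past the 2-fold line, near the upper end of its bar.

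The 7 other Klf genes of the array spread more widely. Klf11, a Sin3-binding relative of Klf10, was at 5.53 in air against 6.82 in smoke, a log2 difference of 1.29 (2.45-fold), the 1 Klf gene past 2-fold. It lay at the 97.0th percentile of its like-level genes, inside their central 95%, and its difference was 1.05 with the offset of 16. Klf12, a CtBP-binding repressor, was at 6.54 in air against 5.78 in smoke, a log2 difference of -0.76 at the 3.25th percentile. Klf16, another Sin3-binding factor, was at 6.94 and 6.36, a log2 difference of -0.58 at the 9.75th percentile. Klf1, Klf8, Klf14 and Klf17 were below the filter on both arrays, with signals from 2.87 to 3.72, and their differences carry little weight at that level. Klf1, the erythroid factor, was at 3.72 in air and 3.69 in smoke, Klf8 at 3.60 and 3.25, Klf14 at 3.27 and 2.87, and Klf17, a germ cell factor, at 3.47 and 3.06. The branches did not each move one way: among Sin3-binding genes above the filter Klf11, Klf9 and Klf13 were higher, Klf10 was equal and Klf16 lower, and among CtBP-binding genes Klf3 was higher and Klf12 lower. The related Sp factors, which bind the same GC boxes, had 4 of 8 measured genes above the filter and 0 past 2-fold; the largest difference was that of Sp5, at 4.59 in air and 3.84 in smoke (-0.75), which passed the filter through its air signal alone. Their median log2 difference above the filter was -0.07, and 0.07 with the filter on the mean of both arrays.

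The direction of the 9 members that differed was the same under quantile normalization, centring on all genes and centring by level. The offset and the brightest probe of a gene were also tried, but neither can change the direction of a gene with 1 probe. The ranges over all 5 alternatives and the deposited values were 0.53 to 0.68 for Klf5, 0.50 to 0.63 for Klf9, 0.31 to 0.44 for Klf13 and -0.57 to -0.45 for Klf4. Klf7 came closest to 0, from -0.13 to -0.01.

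**Figure D3:**
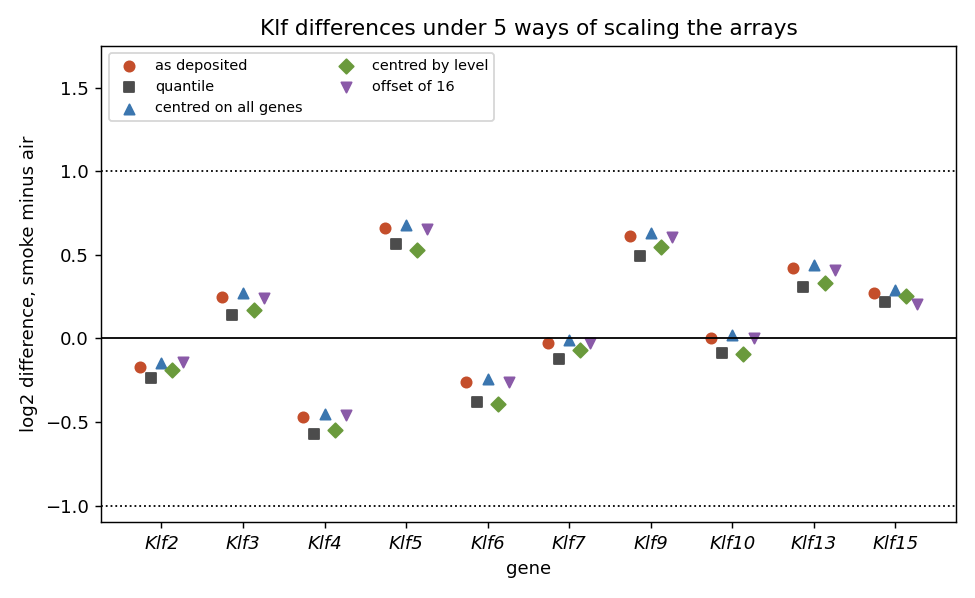
Log2 difference, smoke minus air (y axis), of the 10 studied Klf genes (x axis) as deposited and under 4 other ways of scaling the arrays, 1 marker each, with dotted lines at 2-fold. Within a gene the markers span at most 0.15 and stay on 1 side of 0, other than those of Klf10.

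The cofactor and MEK5-ERK5-MEF2 lists had no gene past 2-fold. All 12 cofactors and ubiquitin ligases were above the filter, 5 higher and 7 lower, with a median of -0.08 (log2). The largest difference was that of Kat2b, an acetyltransferase coactivator, at 5.19 in air and 6.00 in smoke (0.81). With the offset on the linear scale the Kat2b difference was 0.61. The brighter acetyltransferase genes Ep300, at 12.13 in air and 11.64 in smoke (-0.49), and Crebbp, at 14.21 and 14.08 (-0.13), were lower. Among corepressor genes, Sin3a was at 15.05 and 15.03, Sin3b at 6.86 and 7.15, Ctbp1 at 10.17 and 10.52, and Ctbp2 at 9.21 and 9.37. Hdac2, a deacetylase of the Sin3 complex, was at 11.13 and 10.45 (-0.68). In the MEK5-ERK5-MEF2 pathway, which induces Klf2 and Klf4, 5 of 7 genes were higher and 2 lower, with a median of 0.34. Its largest difference was that of the kinase gene Map3k2, at 8.17 in air and 8.72 in smoke (0.55). The 2 lower genes were the MEF2 genes Mef2a, at 13.18 and 12.77 (-0.41), and Mef2c, at 6.79 and 6.60 (-0.19), while Mef2d was higher (0.30). Klf2 and Klf4 were lower, and the part of this pathway in their signals was not tested.

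Genes reported in other systems as targets of the members showed no common direction. Of 28 measured, 17 were above the filter, 9 higher and 8 lower, with a median of 0.01 (-0.05 under quantile normalization); past 2-fold, 1 was higher and 2 lower. These 3 were listed as targets of Klf6, which had 6 listed targets above the filter, more than any other member. Tgfb1, the TGF-beta cytokine, was at 11.85 in air and 13.11 in smoke (1.26), Eng, an endothelial TGF-beta coreceptor, at 13.63 and 12.60 (-1.03), and Col1a1, a fibrillar collagen of fibroblasts, at 6.24 and 5.06 (-1.18). Of the 2 listed Klf5 targets above the filter, Fasn, fatty acid synthase, was at 17.50 and 17.78 and Pdgfa, a growth factor, at 9.95 and 9.60, in opposite directions (0.28 and -0.35). In TGF-beta signalling, which induces Klf10, 5 of 9 genes above the filter were higher, 3 lower and 1 equal, with a median of 0.50. That median was 0.38 under quantile normalization, 0.335 when centred by level and 0.25 without the filter. Tgfb1 was the 1 gene past 2-fold (2 genes under quantile normalization or centring by level), and Klf10 was equal.

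The circadian and glucocorticoid lists, which bear on Klf9, Klf10 and Klf15, were read next; the clock list had the widest range of all lists. Of 17 clock genes above the filter, 8 were higher and 4 lower past 2-fold. Of the 8, Ciart (2.87 in air, 4.89 in smoke) and Bhlhe41 (4.01 and 5.58) passed the filter through the smoke array alone and were under 2-fold with the offset, at 0.97 and 0.99. Dbp, a clock output factor, was at 8.05 and 16.48, and the repressor genes Nr1d1 and Nr1d2 were higher by 4.35 and 2.86 on the log2 scale. Per2 and Per3 were higher by 2.47 and 2.54, and Cry1 differed by -1.22. Npas2 and Arntl (BMAL1), whose proteins bind the E-box printed above, differed by -3.89 and -3.62, and Nfil3 by -2.02. Beside them, Klf9 differed by 0.61, Klf15, which held 3 E-boxes, by 0.27, and Klf10 by 0. Of the E-box holders, Klf11 and Klf15 were higher, and Klf4 and Klf6 lower. Whether these sites act in these cells was not tested. Of 10 glucocorticoid receptor and response genes, 8 were higher, beside 54.3% of all genes above the filter, and 2 lower. Their median was 0.46, and 2 were past 2-fold. The median was 0.36 under quantile normalization and 0.76 with the filter at the 75th percentile. Per1, also a clock gene and past 2-fold, was at 9.04 and 11.16 (2.12). The other, the transcription factor gene Cebpd, was at 9.21 and 10.23 (1.02). Cebpd was under 2-fold with quantile normalization (0.90) and centred by level (0.845). The receptor gene Nr3c1 differed by 0.18, the chaperone gene Fkbp5 by 0.67 and the leucine zipper gene Tsc22d3 by 0.12. The 2 lower genes were Sgk1, at 7.54 in air and 6.69 in smoke (-0.85), and Dusp1 (-0.12). The part of collection hour or glucocorticoid level in the Klf9 and Klf15 signals was not tested.

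**Figure D4:**
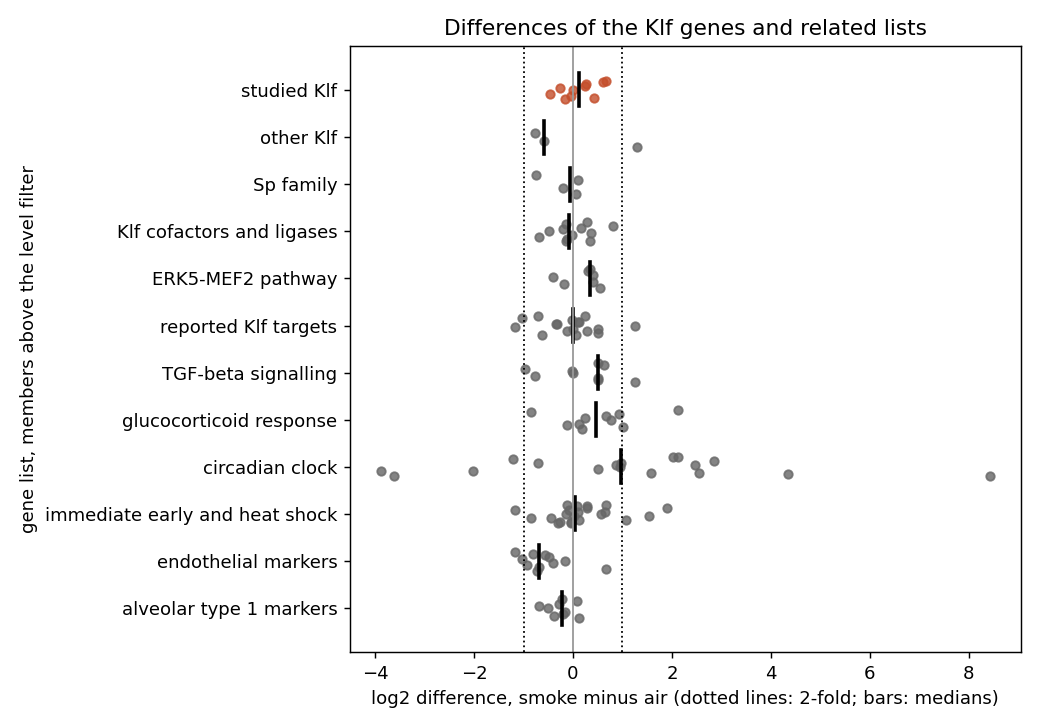
Log2 difference, smoke minus air (x axis), of each gene above the level filter in 12 gene lists (y axis), 1 point per gene, with a black bar at the list's median and dotted lines at 2-fold. The 10 studied Klf genes lie between -0.47 and 0.66, while the clock genes run from -3.89 to 8.43 and 10 of 11 endothelial markers lie below 0.

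Early response genes were read beside Klf2, Klf4, Klf6 and Klf10, since tissue dissociation induces them together. All 22 early response and heat shock genes passed the filter, 12 higher and 10 lower, with a median of 0.05 (-0.06 under quantile normalization and -0.01 when centred by level), and 3 were higher and 1 lower past 2-fold. Hspa1a and Hspa1b, inducible HSP70 genes whose near-identical sequences probes may not separate, were higher by 1.91 and 1.53, Junb was higher by 1.08 (under 2-fold with quantile normalization, 0.97, and centred by level, 0.95) and Fosb differed by -1.17. Dusp1, a phosphatase gene of the early response, was at 18.28 and 18.16. The 4 Klf genes differed by 0 to -0.47.

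Markers of other cell types were measured in the same arrays, where fewer cells of a type and less RNA per cell cannot be told apart. Sftpc was at 19.93, the upper limit of the deposited scale, on both arrays, as were 6 of 12 type 2 markers, and Epcam was at 11.09 and 10.92. Of the 6 measurable type 2 markers, Chil1, a chitinase-like protein, was the 1 past 2-fold (2.32). Endothelial markers lie outside the sort yet all 11 were above the filter, from 8.02 to 14.34 in air; 10 were lower and 1 higher, with a median of -0.68, and Cldn5 (-1.17) and Eng (-1.03) were past 2-fold lower. Their summed linear signal was 40967 in air and 25926 in smoke, with Cdh5 at 14.34 and 13.86 and Pecam1 at 10.70 and 9.97. Klf2 and Klf4, which endothelium also expresses, were lower in the same array by less than this median, and the part of endothelial RNA in their differences was not tested. Alveolar type 1 markers had a median of -0.23 over 9 genes (-0.35 under quantile normalization), 7 of them lower and 0 past 2-fold. The largest difference was that of Clic5 (-0.68). The remaining lists had 1 or 2 genes each past 2-fold: Chil3 (-1.40) among 4 macrophage markers above the filter, Cd3d (1.03) among 5 lymphocyte markers, Il1r2 (1.12) among 6 neutrophil markers, Col1a1 (-1.18) and Pdgfrb (-1) among 6 fibroblast markers, and Scgb3a1 (-1.83) and Tppp3 (-1.44) among 4 airway markers. Their medians were -0.19, 0.09, 0.75, 0.085 and -0.885, and Ptprc, the pan-leukocyte gene, was at 7.64 and 7.59. The airway median was -0.205 without the filter, -0.33 with the filter at the 75th percentile and -0.995 when centred by level. The neutrophil median was 0.56 with the offset of 16. The lymphocyte median was -0.05 with the filter at the 75th percentile, and the fibroblast median was -0.05 without the filter. A further airway marker, Scgb1a1, is not among the 4. It read 19.93 in air and 19.93 in smoke, the highest value of the scale, so a difference in it could not be measured. Cd3d and Il1r2 passed the filter through the smoke array alone, and with the offset Cd3d (0.54), Il1r2 (0.75), Col1a1 (-0.89) and Pdgfrb (-0.75) were under 2-fold.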

How the data were processed

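The authors deposited 1 value per probe and array, read here as log2 signal from the values (1.55 to 19.93); the scale is unstated. Per the submitters' processing notes, Transcriptome Analysis Console was used; settings, normalization and genome build: not given in the sources used here. Array medians were 4.61 (air) and 4.53 (smoke). The platform annotation names 1 gene for 19572 of 22206 probes, several for 0 and none for 2634. Probes of a gene were averaged, giving 19505 genes; 10419 had a brighter array at or above 4.57 and were not at the upper limit on both arrays.

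Differences are smoke minus air, and folds are 2 to the power of them. With 1 array per group no test was run. Like-level genes were the 200 nearest in mean level, members left out. The scripts (Python 3.11.15, numpy 2.4.6, pandas 2.3.3) were tested on simulated data. Of 203 listed genes, 15 were not analysed here and 11 stood in over 1 list. Named genes are all Klf genes, those of each list past 2-fold (at most 3 per direction) or with the largest difference, and 9 fixed ones; others were picked with their values in view. The members and lists were chosen with earlier results of these data known. Alternatives changed the scaling, offset, filter, threshold, probe rule and number of like-level genes. Protein sequences were not used here.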

Additional observations from a re-analysis of the deposited data

How the results depend on the processing

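No studied Klf gene passed 2-fold under quantile normalization, or with differences centred on all genes or by level. An offset of 16, the brightest probe, the 3 other filters and a threshold of 3-fold could not have raised this count of 0. The offset only shrinks differences, each member has 1 probe, and all members already passed the main filter. At 1.5-fold the count was 2 (Klf5 and Klf9). That count of 2 was 0 under quantile normalization, where Klf5 and Klf9 were at 0.565 and 0.495, and 0 when centred by level, at 0.53 and 0.545, since 1.5-fold is 0.585. The members' median of 0.125 was 0.25 with the filter at the 75th percentile, which leaves out Klf2, Klf10 and Klf15, and ranged from 0.0275 to 0.145 over the 4 other scalings. Of 260 recomputed differences of 52 named genes, 260 moved by less than the robust SD of like-level genes and 0 called ones changed sign. Centring on all genes shifted every difference by the same 0.02, and the brightest probe left each unchanged. Those settings therefore add little to the count of 260. The uncalled difference of Klf1, below the filter, was -0.03 as deposited and 0.075 and 0.085 under quantile normalization and centring by level. The background past 2-fold was 6.41% as deposited and 3.31% with the offset. No paired analysis was possible because each group has 1 array; for the same reason no array could be left out.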
